A study of Mus musculus with 23 samples.

Results

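The cells described here are a small population within the KSL gate of mouse bone marrow, the lineage-negative, c-Kit-positive, Sca1-positive fraction that is sorted to enrich blood stem and multipotent progenitor cells. They were picked from droplet single-cell RNA libraries by their counts of unique molecular identifiers (UMIs). A member held at least 2 UMIs of Irf8 and detected at least 2 of 5 marker genes (Siglech, H2-Aa, H2-Ab1, H2-Eb1 and Cd74). It also detected fewer than 3 of 6 B-lineage genes (Ebf1, Vpreb1, Vpreb3, Igll1, Cd79a and Pax5). The rule found 2271 members among 78945 kept cells, 884 of 50460 cells at baseline and 1387 of 28485 cells after transplantation. Because Irf8, the markers and the B-lineage genes chose the cells, their levels below are descriptions and support nothing.

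The mice carried Mx1-Cre with floxed alleles of Ezh2 (Ezh2 KO) or of Jarid2 (Jarid2 KO), or were labelled Control. Mx1 is an interferon-responsive promoter, so the deletion is not limited to dendritic cells, and the labels list no treatment and do not say whether the Controls carried Cre. The baseline experiment held 6 libraries from mice that had not been transplanted, aged 2 months. Each genotype was represented by a male (replicate 1) and a female (replicate 2). The transplant experiment held 5 libraries of CD45.2 donor KSL cells, taken 18 weeks after 500000 donor cells had been given together with CD45.1 competitor cells to lethally irradiated recipients. It comprised 1 Control, 2 Ezh2 KO and 2 Jarid2 KO libraries. The labels do not say whether a transplant library came from 1 recipient or several, so p-values there measure the spread between libraries, which may be in part technical.

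Dendritic cells take up antigen and present it to T cells on MHC class II molecules. Irf8, a transcription factor, is required for plasmacytoid and type 1 conventional dendritic cells and is already expressed in the progenitors that lead to them. H2-Aa, H2-Ab1 and H2-Eb1 encode chains of the class II molecules, Cd74 encodes the invariant chain that escorts them, and Siglech encodes a surface receptor typical of plasmacytoid dendritic cells. Ezh2 is the catalytic subunit of Polycomb repressive complex PRC2, which places the repressive mark H3K27me3, and Jarid2 is a cofactor of the same complex.

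The class II genes that define most members are known to share a promoter module, in which the X and Y boxes recruit the factors that Ciita, the class II transactivator, works through. The 150 bases before the start sites of H2-Aa and H2-Eb1 are shown because these class II genes are part of the rule. Both came from the RefSeq promoter table (build GRCm38.p6), where 1 entry each was found. H2-Aa lies at chr17:34287824-34287973 on the minus strand and H2-Eb1 at chr17:34305717-34305866 on the plus strand. Capitals mark the X box core letters GCAAC and the Y box letters CTGATTGG.
H2-Aa: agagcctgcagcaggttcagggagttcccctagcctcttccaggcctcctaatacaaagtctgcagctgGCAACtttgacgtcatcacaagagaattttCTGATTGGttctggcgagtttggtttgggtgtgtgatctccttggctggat
H2-Eb1: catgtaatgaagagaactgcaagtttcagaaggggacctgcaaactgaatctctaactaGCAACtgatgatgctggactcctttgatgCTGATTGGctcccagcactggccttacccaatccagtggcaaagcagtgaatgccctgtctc
In both stretches the X core stood before the Y box, with 25 bases between them in H2-Aa and 24 in H2-Eb1. Over the 250 upstream bases of 32851 promoters, searched on both strands, CTGATTGG occurred in 3.83%, GCAAC in 29.9% and both in 1.22%. The 2 motifs do not overlap each other, and a match is a description of letters only.

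Kept cells held 92105257 to 143133494 UMIs per library at baseline and 73238198 to 122383239 after transplantation. Members were deeper than other kept cells in each of the 11 libraries, with median UMIs per cell between 14458 and 24003 against 10909 to 16937. The libraries shared 806 of 78139 distinct barcodes with at least 1 other library, and no barcode was a member in more than 1 library. Cells marked as likely doublets made up 6.11% to 19.8% of members and 6.13% to 8.06% of other kept cells. Among members with 100 or more class II UMIs the marked share reached 43.3% in baseline Ezh2 KO replicate 1.

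The members fell into 2 unlike kinds of cell by their summed UMIs of H2-Aa, H2-Ab1, H2-Eb1 and Cd74. Under 20 of these UMIs were found in 1792 members, 20 to 99 in 119, and 100 or more in 360. Only 59 members lay between 50 and 200. The median member with 100 or more held 306 to 577 class II UMIs depending on the library, against 2.5 to 5 in members under 20. The boundaries at 20 and 100 were set after the distribution had been seen, so values for these ranges carry no test. Of all 426 kept cells with 100 or more class II UMIs, 360 were members.

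**Figure D1:**
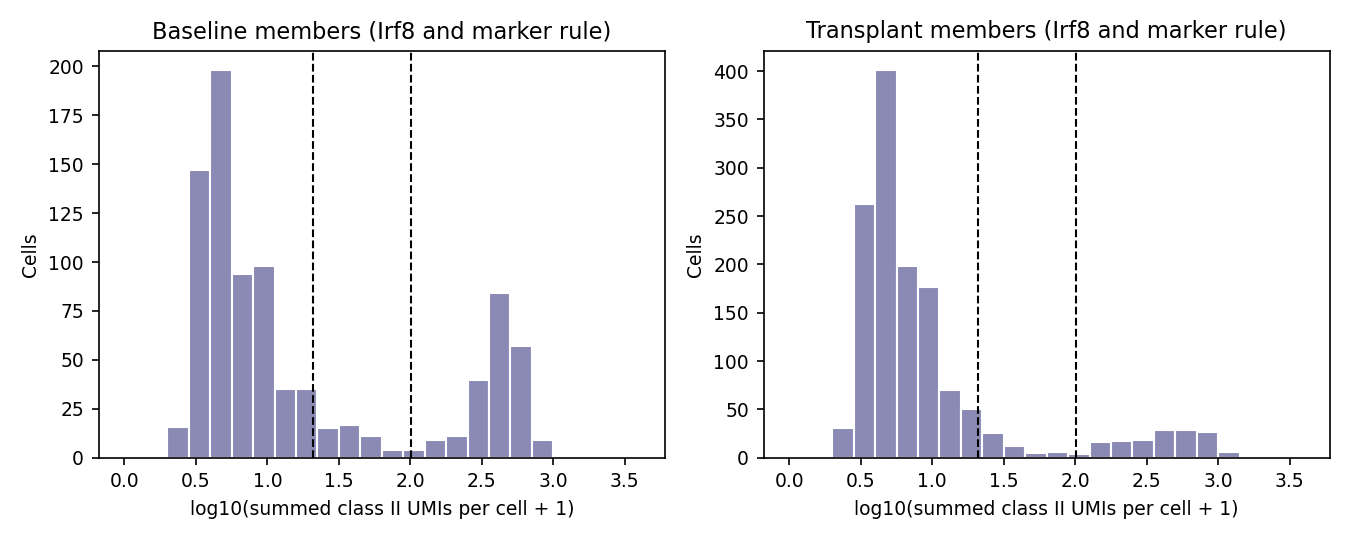
Number of members (vertical axis) by the logarithm to base 10 of their summed H2-Aa, H2-Ab1, H2-Eb1 and Cd74 UMIs plus 1 (horizontal axis), at baseline and after transplantation. Dashed lines stand at 20 and 100 UMIs: 1792 members lie below the left line, 360 at or above the right one, and 119 between them.

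The label of dendritic cell was checked on 14 conventional dendritic cell markers that the rule did not use, in cells thinned to 4000 UMIs so that depth was equal. At least 3 of the 14 were detected in 96.7% to 100% of members with 100 or more class II UMIs at baseline and in 75.7% to 94.1% after transplantation. Among members under 20 the share was at most 11.9% in any library, and among other kept cells it was 1.79% to 3.27%. The name dendritic therefore rests on the class II-high minority, which made up 24.1% of members at baseline and 10.6% after transplantation. The majority with few class II UMIs is called class II-low below and is given no cell type name.

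The class II-high members carried the genes of type 1 conventional dendritic cells. Cst3, which encodes the protease inhibitor cystatin C, stood at 11943 to 14999.5 counts per 1000000 (CPM) in class II-high members of the baseline libraries and at 11159 to 15072 CPM after transplantation. In class II-low members Cst3 stood at 236 to 315 CPM and 422 to 560 CPM, near the 215 to 249 and 432 to 530 CPM of other kept cells. Xcr1, the chemokine receptor of type 1 conventional dendritic cells, ranged from 325 to 528 CPM in class II-high members at baseline and from 110 to 291 CPM after transplantation, and never exceeded 0.637 CPM in class II-low members. Clec9a, a receptor for exposed actin of dead cells, stood at 406 to 626 CPM and 138 to 217 CPM in class II-high members and at or below 2.47 CPM in class II-low members. Each of these genes separated the 2 kinds of member in all 11 libraries without overlap. Other lists moved with the split. Of 18 immediate early and stress genes over 10 CPM, 10 were higher and 3 lower in class II-high than in class II-low members in every baseline library, with summed levels of 2074 to 2790 against 1154 to 1642 CPM. In every transplant library 8 of 16 were higher and 3 lower. Of 33 cell cycle genes over 10 CPM, 1 was higher and 22 lower in class II-high members in every baseline library. Their summed levels were 1174 to 2172 against 3473 to 4237 CPM in class II-low members. In every transplant library 1 of 34 was higher and 21 lower. Over all genes 15.98% and 17.1% were higher, and 41.8% and 31.3% lower, in every library of the 2 experiments. Of the monocyte and macrophage genes over 10 CPM, 5 of 9 at baseline were higher and 2 lower in every library. After transplantation 7 of 12 were higher and 4 lower. Their summed levels overlapped, at 1612 to 2204 against 1692 to 2373 CPM at baseline. The part of these genes in the split was not tested.

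Some regulators and sensors followed the same split, but the list of dendritic progenitor regulators as a whole went both ways. Of its 31 genes over 10 CPM, 12 were higher and 14 lower in class II-high than in class II-low members in every baseline library, and 13 higher and 12 lower in every transplant library. Over all genes these shares were 15.98% and 41.8% at baseline and 17.1% and 31.3% after transplantation. Batf3, a transcription factor needed by type 1 conventional dendritic cells, ranged over all 11 libraries from 148 to 193 CPM in class II-high members and from 0 to 3.49 CPM in class II-low members. Ciita ranged from 267 to 455 CPM in class II-high members at baseline and from 130 to 290 CPM after transplantation, with at most 7.23 CPM in class II-low members. Tlr3, the endosomal sensor of double-stranded RNA, stood at 120 to 255 CPM in class II-high members. Naaa, an acid amidase, stood at 498 to 905 CPM after transplantation and 1160 to 1636.5 CPM at baseline. Cadm1, an adhesion molecule, and Zbtb46, a transcription factor of conventional dendritic cells, were lower after transplantation: Cadm1 ranged from 480 to 746 CPM at baseline and from 41.3 to 123 CPM after transplantation, and Zbtb46 from 161 to 249 and from 11.3 to 49.7 CPM. Genotypes share these ranges, and baseline and transplant libraries were prepared as separate experiments, so experiment, host and library preparation cannot be told apart. Markers of type 2 conventional dendritic cells were low in class II-high members, with Sirpa at 0 to 11.3 CPM and Cd209a at 0 to 32.3 CPM. Ccr7, a receptor of migrating mature dendritic cells, was at or below 2.90 CPM.

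Dntt, Satb1 and Flt3 were higher in class II-low members than in other kept cells in each library. Dntt, the DNA polymerase that adds bases at antigen receptor joints, stood at 552 to 1039 CPM in class II-low members at baseline and at 533 to 1005 CPM after transplantation. In class II-high members Dntt was at most 33.6 CPM at baseline, and 377 CPM in 1 transplant Ezh2 KO library against 0 to 108 CPM in the other 4. Dntt was also higher in class II-low members than in other kept cells in all 11 libraries, by 1.63 on the log2 scale with 5 CPM added to both values. Satb1, a chromatin organiser of lymphoid cells, exceeded other kept cells by 0.94 and Flt3, the receptor that sustains lymphoid and dendritic progenitors, by 0.89 on the same scale. Cd34, a progenitor surface protein, stood at 292 to 336 CPM and 382 to 447 CPM in class II-low members.

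Mpo, the peroxidase of neutrophil granules, went with the experiment: class II-low members held 148 to 459 CPM at baseline and 1428 to 2205 CPM after transplantation, where other kept cells held 2259 to 3984 CPM. Of the 17 genes of the neutrophil granule list, 12 reached 10 CPM in transplant cells, and 12 of these 12 were lower in members than in other kept cells in each of the 5 libraries, as were 16.5% of all genes over 10 CPM. Their summed level was 6621 to 10336 CPM in members and 11072 to 22360 CPM in other kept cells. At baseline the list did not separate them: of 8 genes over 10 CPM, 1 was higher and 2 lower in every library, and the sums overlapped, at 1357 to 2545 CPM in members and 1808 to 2297 CPM in other kept cells.

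**Figure D2:**
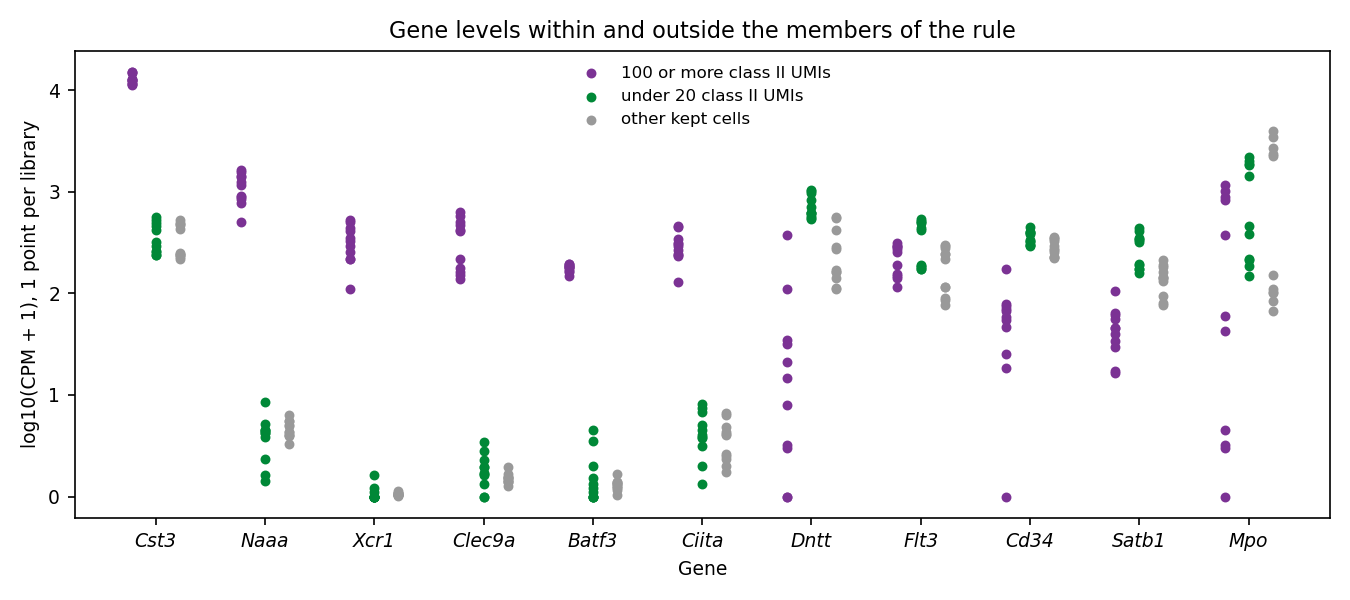
Level of 11 genes, as the logarithm to base 10 of CPM plus 1 (vertical axis), in members with 100 or more class II UMIs, members under 20 and other kept cells, with 1 point for each of the 11 libraries. Cst3, Naaa, Xcr1, Clec9a, Batf3 and Ciita separate the class II-high members, and Dntt, Cd34 and Satb1 are higher in the class II-low members.

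A Siglech UMI was found in 114 members. At least 3 of 13 plasmacytoid markers that the rule did not use were detected, after thinning, in 57.1% to 100% of them at baseline and 71.4% to 77.8% after transplantation, against 25.8% to 38.0% and 11.6% to 16.8% of other kept cells. In class II-low members the share was 32.4% to 45.8% and 21.4% to 34.0%. Siglech-positive members numbered only 3 to 14 per baseline library and 9 to 21 per transplant library. The genes most like Siglech by the ratio of mean CPM between members with and without it, higher in every library and over 11 libraries, were Ly6d with a mean log2 ratio of 4.41 and Cox6a2 with 3.11. Ly6d encodes a surface protein of lymphoid progenitors that lead to B cells and plasmacytoid dendritic cells. Sdc4, a cell surface proteoglycan, followed with 2.34 and Il7r, the interleukin 7 receptor, with 2.32. Siglech-positive members were 4.32% and 4.63% of members in baseline Control, 7.57% and 3.96% in Ezh2 KO, with 3.82% and 3.12% in Jarid2 KO. After transplantation they were 5.78% in Control, 16.7% and 15.7% in Ezh2 KO, with 2.18% and 2.33% in Jarid2 KO, so the 3 genotypes did not overlap there. The denominator here is members; as a share of all kept cells, Siglech-positive members were 0.279% in Control, 0.316% and 0.269% in the Ezh2 KO libraries, with 0.165% and 0.222% for Jarid2 KO, and Control lay within the range of Ezh2 KO. These shares use a rule gene and carry no test.

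Surface proteins were read at baseline with 6 antibody tags, which the rule did not use. CD48, a protein that stem cells lack and committed progenitors carry, had a mean count of 3085 and 2247 in Control members, 2945 and 3307 in Ezh2 KO members, with 2308 and 2922 in Jarid2 KO members. Other kept cells held 1175 and 912, 1647 and 1419, and 865 and 744. The log2 ratio was 1.36 ± 0.37 (SD, n = 6), above 0 in 6 of 6 libraries (exact two-sided sign-flip permutation test, p = 0.03125, the smallest that 6 libraries allow). Adjusted over the 6 antibodies by Benjamini-Hochberg (BH), this was 0.0625 and missed 0.05. CD135, the protein product of Flt3, had a log2 ratio of 1.14 ± 0.16 in 6 of 6 libraries, with the same exact p = 0.03125 and BH p = 0.0625. CD150, a marker of long-term stem cells, was lower in members in 6 of 6 libraries, with a log2 ratio of -0.75 ± 0.30 and the same p-values. The members thus differed from other kept cells beyond the spread between libraries for these 3 proteins before adjustment but not after it. With 6 libraries a tag at the smallest p can pass after adjustment only if enough other tags also reach that p. The miss therefore depends on the other tags.

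The other 3 tags did not pass. CD117, which is c-Kit, had a log2 ratio of -0.12 ± 0.17 (exact p = 0.156, BH p = 0.188), and the streptavidin-PE tag that reads Sca1 had -0.12 ± 0.13 (exact p = 0.125, BH p = 0.188). CD201, the protein C receptor, had -0.03 ± 0.36 (exact p = 0.844). That mean joined unlike cells: the median CD201 count was 76 to 136 in class II-high members and 22.5 to 39 in class II-low members, against 42 to 70 in other kept cells. The median CD48 count was 3379 to 4264 in class II-high members, which placed it between the 92.1 and 99.3 percentile of all kept cells of their library. In class II-low members it was 1386 to 2951. CD150 also split: its median count was 20 to 29 in class II-high members, above that of other kept cells in each of the 6 libraries (12 to 23), and 8 to 17 in class II-low members. Members are also deeper in RNA than other cells, and the part of cell size in the antibody ratios was not tested.

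**Figure D3:**
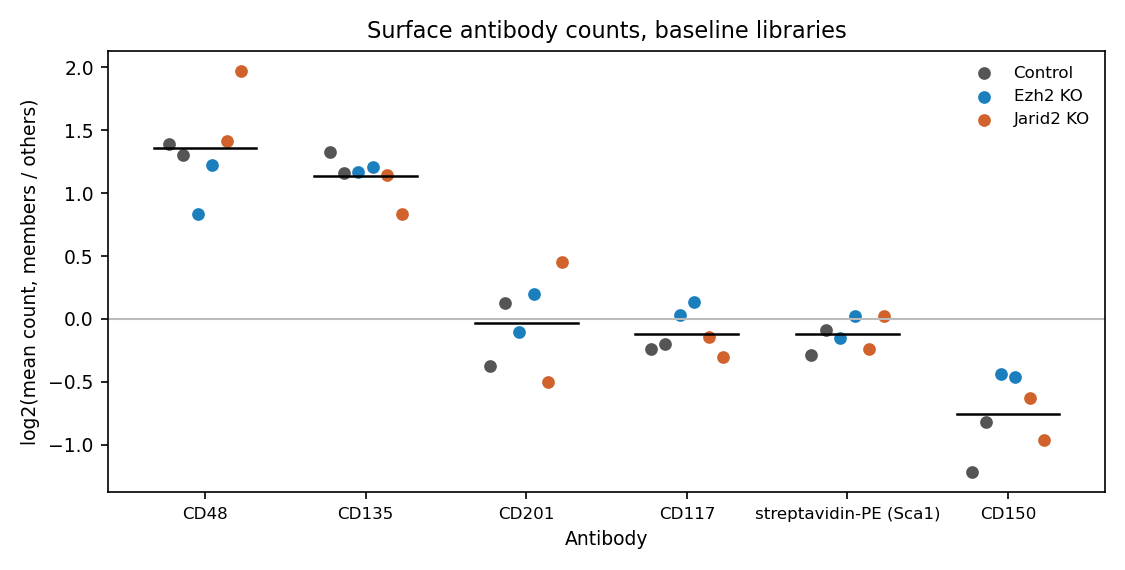
Log2 ratio of the mean antibody count in members over that in other kept cells (vertical axis) for 6 antibody tags (horizontal axis), with 1 point per baseline library coloured by genotype and a line at the mean of 6. CD48 and CD135 lie above 0 and CD150 below 0 in 6 of 6 libraries.

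At baseline the share of kept cells that were members overlapped between Control and each knockout, while both Jarid2 KO libraries lay below both Ezh2 KO libraries. It was 2.26% (exact 95% interval 1.93% to 2.63%) and 1.28% in Control, 1.95% and 2.01% in Ezh2 KO, with 1.68% and 1.27% in Jarid2 KO. Ezh2 KO minus Control was 0.21 percentage points (exact two-sided permutation p = 1) and Jarid2 KO minus Control was -0.29 points (exact p = 0.667). Jarid2 KO minus Ezh2 KO was -0.50 points (exact p = 0.333, the smallest that 2 against 2 libraries allow), and these libraries overlapped at 4000 UMIs per cell, at 0.375% and 0.617% against 0.427% and 0.812%. Within each sex the Jarid2 KO value was below the Ezh2 KO value there too. The 2 Control libraries lay farther apart than the 2 libraries of either knockout. Such intervals cover counting error only.

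After transplantation the share was 4.83% (4.23% to 5.48%) in the Control library. It was 1.90% and 1.71% in Ezh2 KO, with 7.58% and 9.51% (8.74% to 10.3%) in Jarid2 KO. The 3 genotypes did not overlap, with Jarid2 KO highest and Ezh2 KO lowest. Among Siglech-positive members alone the differences from Control were 0.0139 points for Ezh2 KO and -0.0854 points for Jarid2 KO. These rest on 13 cells in Control, 21 and 17 in Ezh2 KO, with 9 and 12 in Jarid2 KO. Control lay within the range of Ezh2 KO there, so the sign of that difference is not a result. For all members the mean was 8.55% ± 1.36 (SD, n = 2) in Jarid2 KO and 1.80% ± 0.13 (SD, n = 2) in Ezh2 KO, a 4.74-fold ratio and a difference of 6.74 percentage points. Each transplant contrast had an exact permutation p of 0.333, which is the smallest that 2 against 2 or 1 against 2 libraries allow, so no contrast could pass 0.05. Stratified over both experiments, the exact p was 0.222 for Ezh2 KO minus Control, 0.444 for Jarid2 KO minus Control and 0.333 for Jarid2 KO minus Ezh2 KO (BH p = 0.444 for each, smallest possible 0.0556). The order of the genotypes after transplantation is a description of 5 libraries.

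Both criteria of the rule were examined separately, as a description. At baseline at least 2 Irf8 UMIs were found in 7.51% to 7.62% of kept cells in Control, 10.7% to 13.5% in Ezh2 KO and 4.02% to 4.05% in Jarid2 KO, without overlap. At 4000 UMIs these shares were 1.91% to 1.99%, 2.89% to 3.15% and 1.04% to 1.32%, in the same order. After transplantation they were 24.2% to 29.1% in all 5 libraries, lowest in Control and overlapping between the knockouts, but at 4000 UMIs Control (8.50%) lay within the range of Ezh2 KO (7.72% to 8.73%). At least 2 of the 5 markers were found in 16.5% to 45.9% of baseline cells, with the genotypes overlapping. They were found after transplantation in 17.6% of cells in Control, 7.22% and 6.64% in Ezh2 KO, with 25.6% and 28.7% in Jarid2 KO. The same order held at a depth of 4000 UMIs, at 6.70%, 2.54% and 2.71%, and 9.57% and 11.7%. Free RNA can give such UMIs, but its level was not measured here. Among 1553 cells with erythroid markers, which should lack class II, 2.27% to 23.2% per library detected at least 2 of the 5 markers at median depths of 14556 to 33578 UMIs, and 8 were members. In transplant Ezh2 KO replicate 2 alone the share of erythroid-marker cells that were members, 2.13% (2 of 94), exceeded that of kept cells, 1.71%. Before thinning, the share with at least 2 markers in erythroid-marker cells overlapped that in kept cells. At 4000 UMIs it was 0% to 3.41% in erythroid-marker cells, against 2.54% to 22.9% in all kept cells. Each library's share of kept cells was then above that of its erythroid-marker cells. The class II-low members rest on such low counts, and the part of free RNA in them was not tested.

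Depth and the threshold moved the level of the share but not the order of its values after transplantation. At 4000 UMIs, however, the interval of Control overlapped those of other genotypes. In cells thinned to 4000 UMIs, with 4325 shallower cells left out and 74620 kept, the share was 0.53% and 0.41% in baseline Control, 0.43% and 0.81% in Ezh2 KO, with 0.37% and 0.62% in Jarid2 KO. After transplantation it was 0.65% in Control, 0.47% and 0.50% in Ezh2 KO, with 1.18% and 1.72% in Jarid2 KO. Just inside the rule lay 760 members with exactly 2 Irf8 UMIs and 1075 with exactly 2 markers, and just outside lay 2033 cells with 1 Irf8 UMI and 3926 cells with 1 marker. The B-lineage limit removed 339 cells.

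Class II-high members were 0.40% and 0.38% of kept cells in baseline Control, 0.32% and 0.68% in Ezh2 KO, with 0.17% and 0.54% in Jarid2 KO. After transplantation they were 0.41% (0.245% to 0.636%) in Control, 0.26% (0.149% to 0.410%) and 0.33% (0.206% to 0.507%) in Ezh2 KO. In Jarid2 KO they were 0.68% (0.479% to 0.935%) and 0.98% (0.734% to 1.28%). The transplant order was thus the same as for all members, but the Control interval overlapped each other one except that of Jarid2 KO replicate 2. Both baseline knockouts had replicates on either side of the Control values. Sex of the donor cells moved with genotype after transplantation. Cells with a Y-linked UMI and no Xist UMI were 14.7% of Control members, 82.5% and 79.6% of Ezh2 KO members, with 25.9% and 32.6% of Jarid2 KO members. This mark undercounts males: it held for 86.3% to 90.7% of kept cells in the baseline libraries labelled male. Ezh2 KO members without it need not be female, since Xist was absent from both of those libraries, as given below. Among the marked male cells alone the share of members was 3.91% in Control, 2.12% and 1.98% in Ezh2 KO, with 7.36% and 9.81% in Jarid2 KO, so the order was the same within 1 sex.

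**Figure D4:**
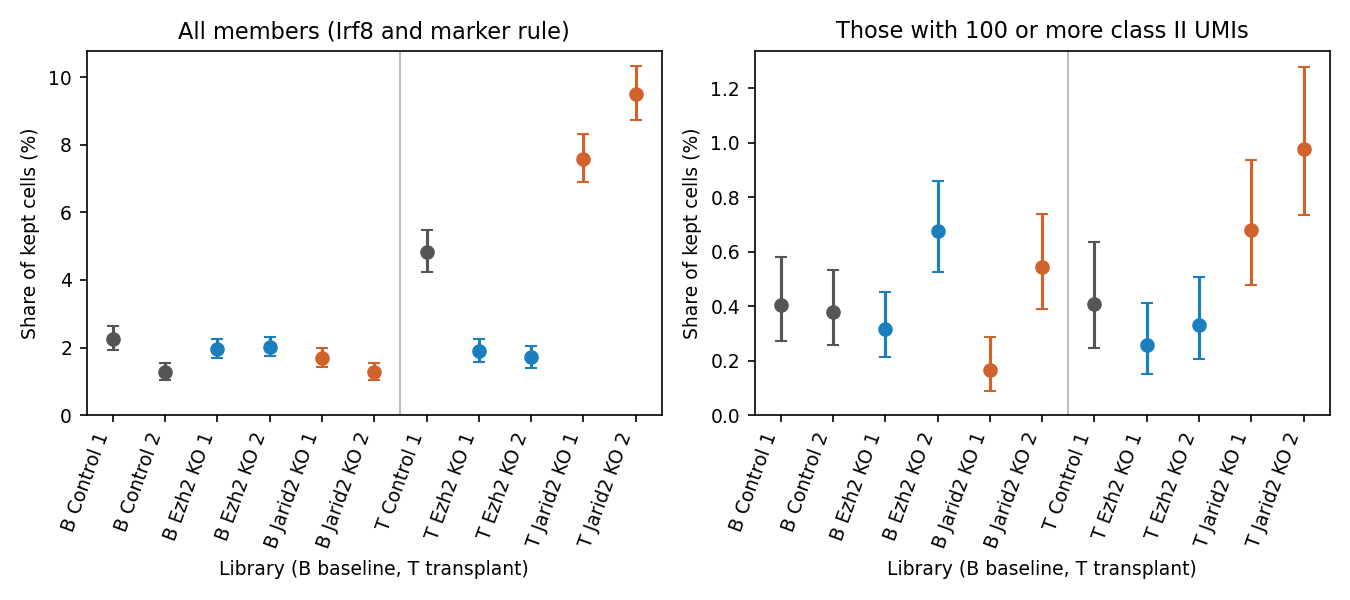
Share of kept cells in percent (vertical axes) that were members (left) or members with 100 or more class II UMIs (right), per library (B for baseline, T for transplant), with exact 95% binomial intervals for counting error. After transplantation all members range from 1.71% in Ezh2 KO to 9.51% in Jarid2 KO, and baseline libraries stay between 1.27% and 2.26%.

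For gene levels, counts were summed over the members of each library, tested with edgeR's quasi-likelihood test and adjusted by BH over all genes tested, with a threshold of 0.05. Levels from here on are CPM normalised by TMM, and fold changes are log2 values with their standard errors (SE). In such sums fewer cells of a kind and less RNA per cell cannot be told apart. The targeted genes were read first. Ezh2 stood at 226 CPM in transplant Control members, 44.7 and 49.4 CPM in Ezh2 KO, with 203 and 201 CPM in Jarid2 KO. It was lower in Ezh2 KO than in Control by a log2 change of -2.27 (SE 0.16, adjusted p = 0.000309). At baseline Ezh2 stood at 234 and 237 CPM in Control, 180 and 167 CPM in Ezh2 KO, with 212 and 235 CPM in Jarid2 KO, and the log2 change of -0.44 did not pass (adjusted p = 0.347). The Ezh2 RNA of members was thus far lower in transplant than in baseline knockouts.

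Jarid2 RNA was not lower in Jarid2 KO members. The baseline Control members held 145 and 175 CPM, against 140 and 147 CPM in Ezh2 KO and 257 and 265 CPM in the libraries labelled Jarid2 KO. These were higher than Ezh2 KO by a log2 change of 0.86 (SE 0.11, adjusted p = 0.0105), and the change of 0.71 against Control did not pass (adjusted p = 0.244). After transplantation Jarid2 stood at 36.2 CPM in Control, 44.4 and 52.1 CPM in Ezh2 KO, with 75.1 and 65.3 CPM in Jarid2 KO. The libraries read the 3′ ends of transcripts and the sources used here do not give the deleted exons, so a tag outside the deleted part checks nothing about the Jarid2 label. Genotype names below are those of the labels.

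At baseline few genes differed within the members. Ezh2 KO minus Control called 6 of 11345 genes (0.0529%), 4 higher (0.0353%) and 2 lower (0.0176%). Hmga2, a chromatin protein of fetal stem cells, stood at 36.9 and 41.6 CPM in Control, 112 and 112 CPM in Ezh2 KO, with 60.0 and 52.1 CPM in Jarid2 KO. It rose in Ezh2 KO by 1.53 (SE 0.14, adjusted p = 0.00133). Ppm1e, a protein phosphatase, rose by 1.34 (SE 0.17, adjusted p = 0.0217), from 19.9 and 22.3 CPM to 58.5 and 47.8 CPM. Iglc1, an antibody light chain, fell by 3.24 (adjusted p = 0.00133), from 24.6 and 55.8 CPM to 3.51 and 5.02 CPM. Iglc1 did not pass with doublets removed (log2 -3.11, adjusted p = 0.383), with at least 3 Irf8 UMIs (-2.26, adjusted p = 0.896) or without cells of 100 or more Igkc UMIs (-1.92, adjusted p = 0.921). Dnase1l3, a secreted nuclease made by dendritic cells and macrophages, fell by 1.48 (SE 0.19, adjusted p = 0.0217), from 28.6 and 67.5 CPM to 9.29 and 26.03 CPM. Dnase1l3 was higher in the female than in the male library of each genotype, as was the class II-high share of members (29.6% against 17.9% in Control, 33.7% against 16.2% in Ezh2 KO, 42.7% against 9.92% in Jarid2 KO), and replicate number, which is sex, entered the fit as a term. The part of the class II-high share in the Dnase1l3 change was not tested. Hmga2 did not pass when members with any B-lineage gene were left out (adjusted p = 0.345), at a log2 change of 1.45. Ppm1e and Dnase1l3 did not pass there either (adjusted p = 0.203 and 0.166, log2 1.35 and -1.48), nor by DESeq2 (0.228 and 0.115) or with doublets removed (0.218 and 0.0625). Without Ezh2 KO replicate 2 Dnase1l3 stood at -1.47 (adjusted p = 0.0701). Without the replicate term no gene passed in any of the 3 baseline contrasts in edgeR's test, with 340, 404 and 460 genes at an unadjusted p under 0.05, and DESeq2 with the term called 2, 1 and 9 genes.

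Jarid2 KO minus Control called 1 of 11345 genes at baseline (0.00881%), and Jarid2 KO minus Ezh2 KO called 20 (0.176%), 13 higher (0.115%) and 7 lower (0.0617%). The 1 gene was again Iglc1, at 24.6 and 55.8 CPM in Control and 1378 and 5101 CPM in Jarid2 KO. Iglc1 did not pass with doublets removed (log2 1.89, adjusted p = 0.968) or with at least 3 Irf8 UMIs (log2 2.33, adjusted p = 0.976). The UMIs of another light chain came from very few cells. Only 31 members held 100 or more UMIs of this gene, Igkc, and they carried 98.4% to 99.9% of the Igkc UMIs of all members in the 9 libraries where such cells occurred. Without these 31 cells Jarid2 KO minus Ezh2 KO called 8 genes at baseline, while Iglc1 still passed in Jarid2 KO minus Control (log2 8.80, adjusted p = 0.00302). Inpp4b, a lipid phosphatase, was higher in Jarid2 KO than in Ezh2 KO (67.6 and 138 against 36.6 and 59.5 CPM, log2 1.06, adjusted p = 0.00841), but stood at 0.68 without those cells (adjusted p = 0.762) and at 0.50 with no B-lineage gene allowed (adjusted p = 0.943). Ifi27, an interferon-induced gene, was lower (71.4 and 59.9 against 139 and 119 CPM, log2 -0.97, adjusted p = 0.00841), as was Cenpv, a chromosome-associated protein (43.5 and 52.8 against 79.3 and 109 CPM, log2 -0.96, adjusted p = 0.0166). Neither passed with doublets removed (log2 -0.90 and -0.88, adjusted p = 0.0878 and 0.0916), with no B-lineage gene (-1.14 and -0.87, adjusted p = 0.0897 and 0.366) or with at least 3 Irf8 UMIs (-0.88 and -0.80, adjusted p = 0.38 and 0.441).

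After transplantation Ezh2 KO minus Control called 45 of 11608 genes in members (0.388%), 29 higher (0.25%) and 16 lower (0.138%). Leaving out 1 library gave 18 (without Ezh2 KO replicate 1), 19 (without Ezh2 KO replicate 2), 247 (without Jarid2 KO replicate 1) or 248 calls (without Jarid2 KO replicate 2). Hmga2 stood at 13.2 CPM in Control, 55.0 and 69.2 CPM in Ezh2 KO, with 34.0 and 29.9 CPM in Jarid2 KO. It rose in Ezh2 KO by 2.22 (SE 0.23, adjusted p = 0.00321), while the change of 1.27 in Jarid2 KO did not pass (adjusted p = 0.194). In male cells alone the Ezh2 KO change was 1.74 and did not pass (adjusted p = 0.197). Auts2, which encodes a protein of a variant Polycomb complex, rose by 2.89 (SE 0.22, adjusted p = 0.000465), from 9.49 CPM to 71.4 and 69.2 CPM. Bmi1, a subunit of Polycomb complex PRC1, rose by 1.65 (SE 0.21, adjusted p = 0.0111), from 16.8 CPM to 55.6 and 49.8 CPM. Bmi1 kept the call in 13 alternatives and lost it in 4. Auts2 was at 165 and 250 CPM in baseline Control members and did not pass there in any contrast.

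Other genes that rose in transplant Ezh2 KO members over Control were Asns, the enzyme of asparagine synthesis (5.08 CPM to 41.5 and 30.7), and Tmem158 (5.08 to 29.6 and 35.4). Bex4 and Bex1, small adaptor proteins of the same family, rose from 0.883 CPM to 38.3 and 22.9 CPM and from 6.84 CPM to 31.8 and 38.9 CPM. Bfsp2, known as a lens filament gene, rose from 10.6 CPM to 34.7 and 45.9 CPM (log2 1.92, adjusted p = 0.0449), but lost the call in 9 of 17 alternatives, among them at least 3 Irf8 UMIs (1.59, adjusted p = 0.0769). Mab21l2, a developmental regulator, had 0 counts in the Control library, which allows up to 0.633 CPM, and stood at 29.9 and 40.0 CPM in Ezh2 KO (adjusted p = 0.00158). Cpa3, a mast cell protease, stood at 18.98 CPM in Control and 57.2 and 56.8 CPM in Ezh2 KO (log2 1.59, adjusted p = 0.00726).

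Among genes that fell in transplant Ezh2 KO members, Adgrl4, an adhesion receptor known from endothelium, fell by 1.35 (SE 0.17, adjusted p = 0.00886), from 291 CPM to 120 and 108 CPM. Adgrl4 kept the call in 14 alternatives and lost it in 4, among them at a mean of at least 50 CPM (log2 -1.33, adjusted p = 0.0517). Arid5b, a chromatin regulator, went from 44.6 CPM to 18.7 and 17.1 CPM, Nav1 from 43.5 CPM to 20.6 and 16.3 CPM, and Basp1 from 74.2 CPM to 33.8 and 34.6 CPM (adjusted p = 0.017, 0.0398 and 0.0306). Nav1 and Basp1 each lost the call in 8 of 17 alternatives, Nav1 by DESeq2 (log2 -1.23, adjusted p = 0.0572) and Basp1 with doublets removed (log2 -1.12, adjusted p = 0.0548) among them. Arid5b lost it in 5 of 17, among them with no B-lineage gene (log2 -1.19, adjusted p = 0.0583) and in male cells (log2 -1.04, adjusted p = 0.602). Igkc, Jchain and Ighm, which are antibody genes, were also called lower, but no Ezh2 KO transplant member held 100 or more Igkc UMIs, and without the 10 such cells of the other transplant libraries the Ighm change was 0.18 instead of -2.21. Xist stood at 1448 CPM in Control and 0 CPM in both Ezh2 KO libraries, the sex difference given above, which the transplant labels do not state. Within male cells alone 6 genes were called in this contrast, but log2 changes were not smaller throughout. Asns stood at 4.45 there against 2.83 in all cells, Bex1 at 4.49 against 2.36, Bfsp2 at 3.66 against 1.92 and Tmem158 at 3.49 against 2.67, and none of these 4 passed in male cells. The Control library held only 33 male members, against 104 and 86 in Ezh2 KO, and these 4 genes were low in Control. Such ratios rest on few Control cells and do not show that a change held or grew within 1 sex.

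Jarid2 KO minus Control called 7 of 11608 genes after transplantation (0.0603%), 4 higher (0.0345%) and 3 lower (0.0258%). Without Ezh2 KO replicate 1 or 2 edgeR called 0, with 505 and 499 genes at an unadjusted p under 0.05, and without Jarid2 KO replicate 1 or 2 it called 324 and 48. Itsn1, an endocytic scaffold protein, stood at 7.73 CPM in Control, 18.98 and 18.3 CPM in Ezh2 KO, with 33.4 and 34.2 CPM in Jarid2 KO. It rose in Jarid2 KO by 2.13 (SE 0.21, adjusted p = 0.0142), and had the same fold but did not pass without Ezh2 KO replicate 1 (2.13, adjusted p = 0.0761) or 2 (2.13, adjusted p = 0.11). Gdpd3, a lysophospholipase, fell from 20.5 CPM to 3.52 and 1.72 CPM (log2 -2.99, adjusted p = 0.0189). Mycn, an oncogenic transcription factor that Ezh2 KO members expressed at 16.1 and 14.8 CPM against 4.19 CPM in Control (log2 1.88, adjusted p = 0.0437, and 0.0572 by DESeq2 at a log2 change of 1.88; 10 of 16 alternatives lost the call), stood at 16.5 and 14.3 CPM in Jarid2 KO, where the change of 1.87 did not pass (adjusted p = 0.0876). The contrasts against Control share the single Control library, which is assumed to vary like the knockouts.

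Jarid2 KO minus Ezh2 KO, which uses 2 libraries on each side, called 103 genes (0.887%), 23 higher (0.198%) and 80 lower (0.689%). It called 28 and 36 without Ezh2 KO replicate 1 or 2, and 420 and 342 without Jarid2 KO replicate 1 or 2. Chchd7, a mitochondrial protein, was lower in Jarid2 KO (35.0 and 32.7 against 108 and 89.4 CPM, log2 -1.55, SE 0.14, adjusted p = 0.000746). Cenpv was lower again (60.2 and 81.5 against 158 and 175 CPM, log2 -1.23, adjusted p = 0.0084), as were Hmga2 (log2 -0.95, adjusted p = 0.0223), Auts2 (log2 -2.31) and Gnb4, a G protein subunit (12.3 and 13.7 against 33.1 and 35.8 CPM, log2 -1.40, adjusted p = 0.00324). Ly6c2, a surface protein of monocytes and plasmacytoid dendritic cells, was higher (91.1 and 101 against 50.2 and 52.1 CPM, log2 0.91, adjusted p = 0.0123), but lost the call in 8 of 20 alternatives, among them doublets removed (0.77, adjusted p = 0.12) and the stricter cell filter (0.63, adjusted p = 0.11). Ly6d was lower (31.98 and 51.1 against 188 and 114 CPM, log2 -1.86, adjusted p = 0.011), beside the larger share of Siglech-positive members in Ezh2 KO. In members without a Siglech UMI the Ly6d change was 1.00, in the other direction (adjusted p = 0.504).

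**Figure D5:**
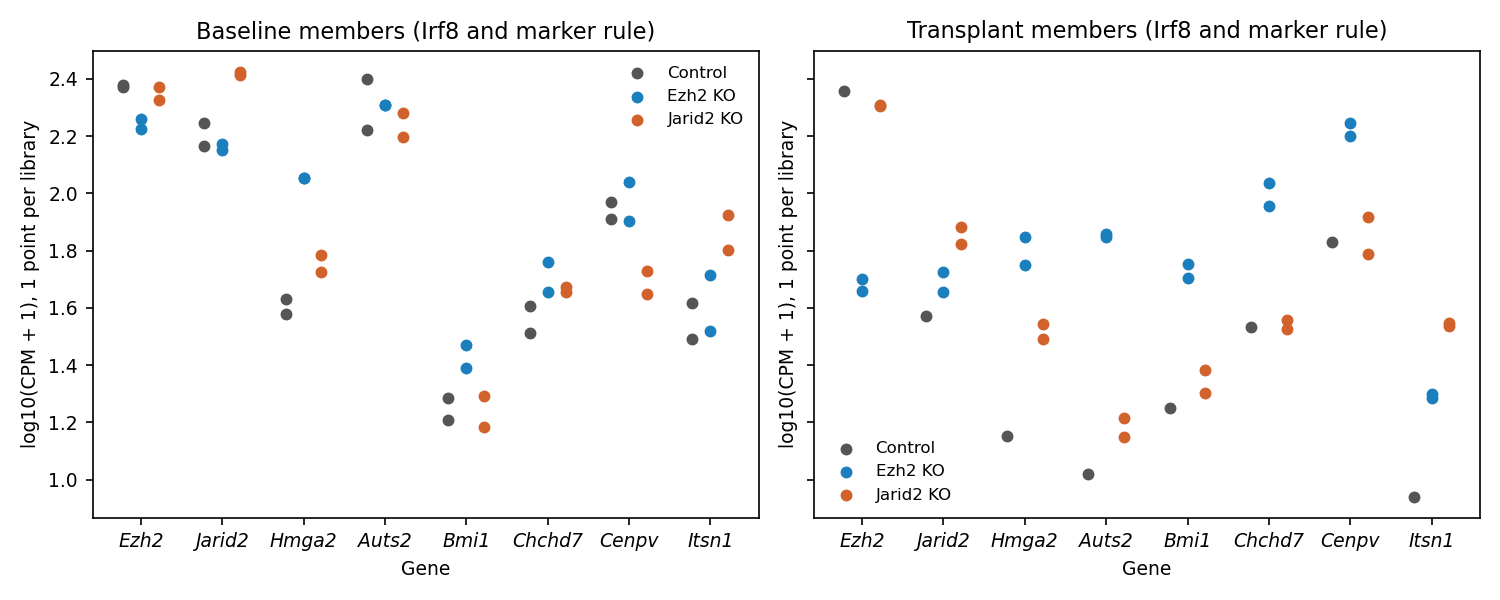
Level of 8 genes in members, as the logarithm to base 10 of normalised CPM plus 1 (vertical axis), with 1 point per library coloured by genotype, at baseline (left) and after transplantation (right). Transplant Ezh2 KO members lie apart for Ezh2 (44.7 and 49.4 CPM against 226 in Control) and for Auts2 (71.4 and 69.2 against 9.49), while at baseline Auts2 overlaps between genotypes.

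Within members, no gene of the conventional dendritic or dendritic progenitor lists, which hold no rule gene, was called in a knockout against Control. The comparison of members with other kept cells is given below. Of the conventional dendritic cell list, 0 of 26 tested genes at baseline and 0 of 27 after transplantation were called against Control in either knockout by edgeR. Of the dendritic progenitor regulators 0 of 34 and 0 of 33 were called. Over all genes the called share for Ezh2 KO was 0.0529% at baseline and 0.388% after transplantation, and for Jarid2 KO it was 0.00881% and 0.0603%, so lists of this size would hold about no call at that share and the counts are not a result about dendritic genes. In baseline Jarid2 KO minus Ezh2 KO (0.176% of all genes called) both lists held 1 call, Irf4, a transcription factor of type 2 conventional dendritic cells and plasma cells. Irf4 stood at 20.7 and 32.6 CPM in Jarid2 KO against 2.01 and 3.58 CPM in Ezh2 KO, with 8.64 and 17.2 CPM in Control (log2 3.25, adjusted p = 0.00216). It stood at 2.18 without cells of 100 or more Igkc UMIs (adjusted p = 0.631) and at -0.012 with at least 3 Irf8 UMIs. The median log2 change of the conventional dendritic list was -0.21 and 0.44 in Ezh2 KO at baseline and after transplantation, and -0.05 and 0.18 in Jarid2 KO, where all genes tested had medians between -0.00 and 0.01. Beside it, class II-high cells were 8.44% of transplant Control members, 13.5% and 19.4% of Ezh2 KO members, with 8.96% and 10.3% for Jarid2 KO, and the part of this mix in the medians was not tested. Cst3 stood at 1246 CPM in transplant Control members, 1585 and 1979 CPM in Ezh2 KO, with 1210 and 1221 CPM in Jarid2 KO. H2-Aa, a rule gene, stood at 410 CPM in Control, 398 and 616 CPM in Ezh2 KO, with 486 and 575 CPM in Jarid2 KO, with overlap between genotypes.

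The remaining lists gave few calls. A list of 29 Polycomb target and fetal genes held 16 tested genes after transplantation, of which 5 rose in Ezh2 KO over Control (Mab21l2, Hmga2, Mycn, Bex4 and Bex1; 0.25% of all genes rose) and 0 fell, with a median log2 change of 1.44 against 0.00 over all genes. In Jarid2 KO over Control 0 rose and 1 fell (Gdpd3; 0.0258% of all genes fell), with a median of -0.10. The list was drawn from genes that earlier results on these same libraries had named, so it is not independent evidence of direction. Of the 14 tested PRC2 subunits, the targeted gene Ezh2 alone passed in transplant Ezh2 KO against Control (0.388% of all genes) and 0 passed in Jarid2 KO (0.0603%), so nothing is read from these counts. Eed, which binds the mark that PRC2 places, stood at 44.6 CPM in Control, 42.5 and 43.5 CPM in Ezh2 KO, with 49.7 and 44.9 CPM in Jarid2 KO.

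Whether members answered differently from the remaining kept cells of the same library was tested with a class by genotype term in edgeR. At baseline 32 of 17817 genes (0.18%) differed for Ezh2 KO against Control, 1 higher in members (0.00561%) and 31 lower (0.174%). For Jarid2 KO 3 genes differed (0.0168%), 2 higher (0.0112%) and 1 lower (0.00561%). After transplantation 258 of 15592 genes (1.65%) differed for Ezh2 KO, 134 higher (0.859%) and 124 lower (0.795%). For Jarid2 KO 30 differed (0.192%), 11 higher (0.0705%) and 19 lower (0.122%). The transplant fit had only 2 residual degrees of freedom and a common dispersion of 0.0002545, against 0.01587 in the fit of members alone. It gave Igkc, whose deviance per degree of freedom was 32.97, a variance of 1.119, so its p-values are too small for genes that vary between libraries. With gene-wise robust priors, an alternative chosen after this had been seen, 235 and 18 transplant genes passed, all of them among the 258 and 30. At baseline 16 and 3 passed, with 12 and 2 of them among the 32 and 3. The robust transplant fit kept the same common dispersion and residual degrees of freedom, and raised the variance of Igkc to 32.97. For genes that are not such outliers it is nearly the same fit, so a call in both fits adds little.

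Dntt differed in both transplant contrasts in both fits. In other kept cells it stood at 109 CPM in Control, 554 and 562 CPM in Ezh2 KO, with 140 and 167 CPM in Jarid2 KO, while in members it stood at 499 CPM, 790 and 891 CPM, and 530 and 595 CPM, all as CPM without TMM. The change in members was smaller than in other cells, by -1.60 on the log2 scale for Ezh2 KO and -0.35 for Jarid2 KO. Of the 21 tested genes of the lymphoid priming list, 11 were called lower and 1 higher in this sense for Ezh2 KO in both fits. Over all genes 0.795% were lower and 0.859% higher by the first fit alone. The list had a median of -0.66 against 0.01 over all genes. The rule limits B-lineage genes in members but not in other kept cells, so it can by itself hold down lymphoid changes in members. Of 22 tested genes of the B lineage list, which holds rule genes, 9 were lower and 0 higher in both fits, with a median of -3.15. The part of the rule in the Dntt and lymphoid calls was not tested, so they do not show that members answered differently. Of the 16 tested neutrophil granule genes, 8 were called higher and 0 lower in both fits (beside the same shares over all genes), with a median of 0.56. Within members 0 of 13 tested granule genes were called for transplant Ezh2 KO against Control (0.388% of all genes), with a median log2 change of 0.14. The granule calls thus do not show a rise in members. The part of the mix of other kept cells in them was not tested. Of 29 tested conventional dendritic genes, 3 were higher (Cst3, Naaa and Ccr2) and 1 lower (Flt3) for transplant Ezh2 KO in both fits. Of 34 progenitor regulators 2 were lower (Bach2 and Flt3) and 0 higher, beside the same shares. At baseline Irf4, in both lists, was lower for Ezh2 KO (0.174% of all genes lower). For Jarid2 KO neither list held a call. The part of the class II-high share of members in these calls was not tested. For Cpa3 the changes were larger in members than in other cells, by 1.48 for Ezh2 KO and 1.44 for Jarid2 KO. Both values use the single Control library and the transplant fit described above, whose p-values are too small for genes that vary. Within members Cpa3 was not called for Jarid2 KO against Control. Hmga2 did not pass for a difference between members and other cells in either experiment (adjusted p = 0.0939 for transplant Ezh2 KO, with a log2 difference of -0.69).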

How the data were processed

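For 11 gene-expression libraries the authors deposited raw UMI counts of each gene in each barcode, and the baseline matrices also hold antibody counts. The matrices were written by Cell Ranger 7.2.0 (baseline) and 6.1.2 (transplant), per the file headers, while the submitters' processing notes name Cell Ranger 3.1.0, Seurat 3.0, Partek and mm10 without roles. Those antibody counts were matched by genotype and sex to the 6 samples labelled as antibody libraries, and the 6 H3K27me3 samples were not analysed here.

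Barcodes with at least 1000 UMIs, 500 genes and at most 10% mitochondrial UMIs were kept, 78945 of 97066. Doublets were kept in the main results. Scrublet scored the cells of each library, and the highest scores, 0.8% per 1000 barcodes, were marked and removed in an alternative. The members and gene lists were chosen with earlier results of these data known.

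Members' counts were summed per library and tested with edgeR 4.0.16 (quasi-likelihood, TMM, filterByExpr, two-sided, R 4.3.3), with genotype and replicate number at baseline and genotype alone after transplantation. DESeq2 1.42.0 was an alternative. Replicate number is sex at baseline, per the labels, and same-numbered deviations correlated at 0.573, 0.524 and 0.577, so the numbers pair the samples there. Clopper-Pearson intervals are at 95%. Named genes passed 0.05 with a mean of at least 20 CPM and no overlap between the groups compared, up to 10 with the largest fold in each direction, or up to 4 per gene list. Cpa3, Gdpd3 and Mycn came from the lists, and Eed was chosen after its values were seen. A gene that met the rule is not reported here. In simulated counts made from these libraries for Ezh2 KO minus Control, the test recovered 49 of 50 genes changed 2-fold at baseline (11345 genes) and 37 of 50 after transplantation (11608 genes), with 17 and 18 unchanged genes called. The changed genes were drawn only from those with a mean of at least 50 CPM, and no replicate effect was simulated. Recovery of genes below that level, as many named here are, was not measured.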

Additional observations from a re-analysis of the deposited data

Results flagged for a closer look

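The share of kept cells that met the Irf8 and marker rule, most of them class II-low, moved in opposite directions in Jarid2 KO against Ezh2 KO in the 2 experiments. At baseline both Jarid2 KO libraries lay below both Ezh2 KO libraries, with a mean difference of -0.50 percentage points. The baseline libraries overlapped at 4000 UMIs per cell (Jarid2 KO 0.375% and 0.617%, Ezh2 KO 0.427% and 0.812%) and for class II-high members (0.167% and 0.544% against 0.316% and 0.677%). Within each sex, given in the order male and female, Jarid2 KO lay below Ezh2 KO by both measures. After transplantation both lay above them, by 6.74 percentage points, while for Siglech-positive members, 9 to 21 cells per library, the difference was -0.0993 points. The difference between the experiments was not tested.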

How the results depend on the processing

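Robust priors, the dispersion of members alone, removal of cells with 100 or more Igkc UMIs (Igkc-rich) and the replicate block on shares were chosen after seeing the data. Shares changed direction as follows, in percentage points: at baseline Ezh2 KO minus Control was -0.17 with no B-lineage gene allowed, and ranged from -0.281 to 0.703 when 1 library was left out. Jarid2 KO minus Control was 0.0222 in thinned cells and ranged from -0.783 to 0.201. In Siglech-positive members alone the transplant differences from Control were 0.0139 for Ezh2 KO and -0.0854 for Jarid2 KO, and Jarid2 KO differed from Ezh2 KO by -0.0993. Those 3 values rest on 9 to 21 cells per library. A replicate block cannot move the baseline share differences (0.211, -0.291 and -0.502), since each genotype has 1 library per replicate.

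Antibody log2 ratios passed 0.05 after BH by median counts for CD117 (-0.29), CD48 (1.72), CD135 (1.71) and Sca1 (-0.22). By share of antibody counts those that passed were CD117 (-1.01), CD48 (0.64), CD135 (0.42), Sca1 (-0.97), CD150 (-1.79) and CD201 (-1.02). The share of a tag falls when another tag rises, and CD48 had the highest mean count of all tags and was higher in members. The negative shares alone therefore do not show lower protein. With doublets removed they were CD117 (-0.25), CD48 (1.34), CD135 (1.14), Sca1 (-0.25) and CD150 (-1.03). Whether a tag passed in these settings depended on how many tags reached the smallest p that 6 libraries allow. CD201 ranged from -0.131 to 0.0605 over left-out libraries.

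Counts of called genes moved widely, and the cause was not tested. For baseline Ezh2 KO minus Control (6), there were 3 with at least 3 Irf8 UMIs, 21 without Cd74 in the rule, 1 with no B-lineage gene, 2 with doublets removed, 24 without Siglech, 2 by DESeq2, 10 with RLE factors, 2 at 50 CPM or more, 147 without a filter and 41 with only the 2 genotypes. Left-out libraries gave 23 to 67. For baseline Jarid2 KO minus Control (1), edgeR called 0 with at least 3 Irf8 UMIs, with no B-lineage gene and with doublets removed (450, 464 and 529 genes at an unadjusted p under 0.05). It called 6 without Cd74, 4 with Siglech, 2 without Igkc-rich cells, 84 without a filter, 13 with 2 genotypes and 7 to 53 over left-out libraries. For baseline Jarid2 KO minus Ezh2 KO (20), edgeR called 0 with no B-lineage gene and with Siglech (518 and 78 at an unadjusted p under 0.05). It called 1 with at least 3 Irf8 UMIs, 11 with doublets removed, 8 without Igkc-rich cells, 8 at 50 CPM or more, 170 without a filter, 52 with 2 genotypes and 17 to 113 over left-out libraries, and DESeq2 called 9. With no replicate block edgeR called 0 in each baseline contrast (340, 404 and 460 at an unadjusted p under 0.05).

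For transplant Ezh2 KO minus Control (45), there were 2 with Siglech, 6 in male cells, 6 at 50 CPM or more, 265 without a filter, 176 with 2 genotypes and 18 to 248 over left-out libraries. For Jarid2 KO minus Control (7), edgeR called 0 at 50 CPM or more and with 2 genotypes (55 and 504 at an unadjusted p under 0.05). It called 1 with Siglech, 4 in male cells, 85 without a filter and 0 to 324 over left-out libraries (0 without Ezh2 KO replicate 1 or 2, with 505 and 499 at an unadjusted p under 0.05). For Jarid2 KO minus Ezh2 KO (103), there were 4 with Siglech, 6 at 50 CPM or more, 443 without a filter, 218 with a replicate block in the knockout libraries and 28 to 420 over left-out libraries. The transplant numbers share only a number, and the deviations of the single pair correlated at 0.19.

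For the difference between members and other cells, baseline Ezh2 KO (32) gave 16 with robust priors, 1 at 50 CPM or more, 19 without Igkc-rich cells and 23 to 146 over left-out libraries. Baseline Jarid2 KO (3) gave 6 without Igkc-rich cells and 34 to 225. Transplant Ezh2 KO (258) gave 73 at 50 CPM or more and 138 to 310, and Jarid2 KO (30) gave 18 with robust priors, 5 at 50 CPM or more and 16 to 59.

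These genes changed sign. Ighm in transplant Ezh2 KO minus Control was 0.22 with no B-lineage gene, 0.24 with doublets removed, 0.45 with Siglech, 0.29 in male cells and 0.18 without Igkc-rich cells, and -0.10 in Jarid2 KO minus Ezh2 KO with no B-lineage gene. Jchain was 1.13, 0.44 and 4.59 in Ezh2 KO minus Control with no B-lineage gene, with doublets removed and in male cells, and -0.057 in baseline Jarid2 KO minus Ezh2 KO with no B-lineage gene. With at least 3 Irf8 UMIs, Igkc was -0.84, Mzb1 -0.31 and Irf4 -0.012 in the same baseline contrast. With Siglech alone, transplant Hmga2 was -0.13 in Jarid2 KO minus Control and Jarid2 was -0.39 in Ezh2 KO minus Control. Ly6d in transplant Jarid2 KO minus Ezh2 KO was 1.00 without Siglech. Over the other settings of named genes, 1030 values kept their direction and side of the threshold, 221 no longer passed and 16 newly passed.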

Other observations

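The antibody features are also listed in the transplant matrices, where they sum to 130 to 275 counts per library, too few for a level per cell.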
